A study of Mus musculus with 12 samples.

Results

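The expanded huntingtin allele Q111 was compared with the control allele Q20 in the striatum of mice that lack the metabotropic glutamate receptor mGluR5. The comparison takes the 3 arrays of HdhQ111/Q111/mGluR5-/- mice and the 3 arrays of HdhQ20/Q20 mice that are also mGluR5-/-, which are 6 of the 12 arrays of the study. All genes with 1 symbol were taken, each read from its brightest probe set (by the mean over the 12 arrays), and 16721 of 19938 genes rose far enough above the low end of the arrays to be tested. Every mouse was a male of 90 days on a mixed background of 129, CD-1, C57BL/6 and FV, and was homozygous for its knock-in allele. The other 6 arrays came from HdhQ111/Q111 and HdhQ20/Q20 mice with both copies of Grm5, the gene of mGluR5, with 3 arrays each. Below, Q111 and Q20 arrays without further words are those of mice lacking mGluR5. The labels name no cell type or promoter restricting the receptor knockout. Nor do they say that the arrays of 1 group are separate mice. The p-values therefore reflect only the spread among these samples, which may be technical.

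Huntington's disease is caused by an expanded CAG repeat in the huntingtin gene, and the projection neurons of the striatum are the cells most affected by it. Knock-in mice carry the repeat in their own huntingtin gene. mGluR5 is a receptor of the group I family that couples through Gq proteins to phospholipase C and calcium release, and projection neurons are among the striatal cells that use it.

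Values are log2 signals normalised by robust multi-array averaging (RMA). The array medians lay between 7.05 and 7.16, and the 25th percentile, the level of the filter on dim genes, lay between 5.69 and 5.94. A group mean below that percentile is not told from background, so a change to or from it has no exact size. Grm5 had signals of 11.14, 11.09 and 10.98 in the Q111 arrays against 11.06, 10.93 and 11.17 in the Q20 arrays. These groups overlapped, with a log2 fold change of 0.01 ± 0.09 (SE, 95% interval -0.19 to 0.21, adjusted p = 0.982), and which of the probes lie in the deleted stretch is not known here. Htt, the huntingtin gene itself, had 9.76, 9.83 and 9.71 in the Q111 arrays against 9.88, 9.92 and 9.92 in the Q20 arrays. The Q111 values were all lower, yet the difference of -0.14 ± 0.08 did not pass the test (adjusted p = 0.675). Of the defining genes of striatal projection neurons, Drd2 and Ppp1r1b were strong in all 6 arrays. The dopamine receptor Drd2 read 12.15, 12.03 and 12.04 in the Q111 arrays against 12.03, 12.06 and 12.09 in the Q20 arrays, and the signalling protein Ppp1r1b (DARPP-32) read 11.60, 11.60 and 11.49 against 11.55, 11.55 and 11.45 in the same order. All of these values of Drd2 and Ppp1r1b lay above the upper quartile of their arrays, which was between 8.54 and 8.64. Not every defining gene did. Pdyn read 8.37 and 8.53 in Q111 replicates 1 and 2, where that quartile was 8.57 and 8.60.

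Of the 16721 genes, 148 differed between Q111 and Q20 arrays without mGluR5 (0.885%), 57 of them higher (0.341%) and 91 lower (0.544%) in Q111. The threshold for a call was an adjusted p of 0.05 (limma with 1 mean for each of the 4 groups, Benjamini-Hochberg over all tested genes). The size of the change was at least 1.5-fold for 84 genes (29 higher and 55 lower) and at least 2-fold for 26 (11 higher and 15 lower). The smallest called change was 1.325-fold, and the median size over the called genes was 0.622 on the log2 scale. In all 148 called genes the Q111 and Q20 arrays did not overlap, which also held for 19.1% of all tested genes, among which 0.885% were called. Over all tested genes the median log2 change was -0.022, with 56.7% of genes negative. The gene lists below held 5 to 55 tested members each. In lists this short, 0 called members cannot be told from the 0.885% of all tested genes and is no sign of unchanged genes. Alleles of the parental strains and the Q111 allele itself cannot be told apart in this design. In whole striatum, fewer cells of a type and less RNA per cell cannot be told apart either.

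**Figure D1:**
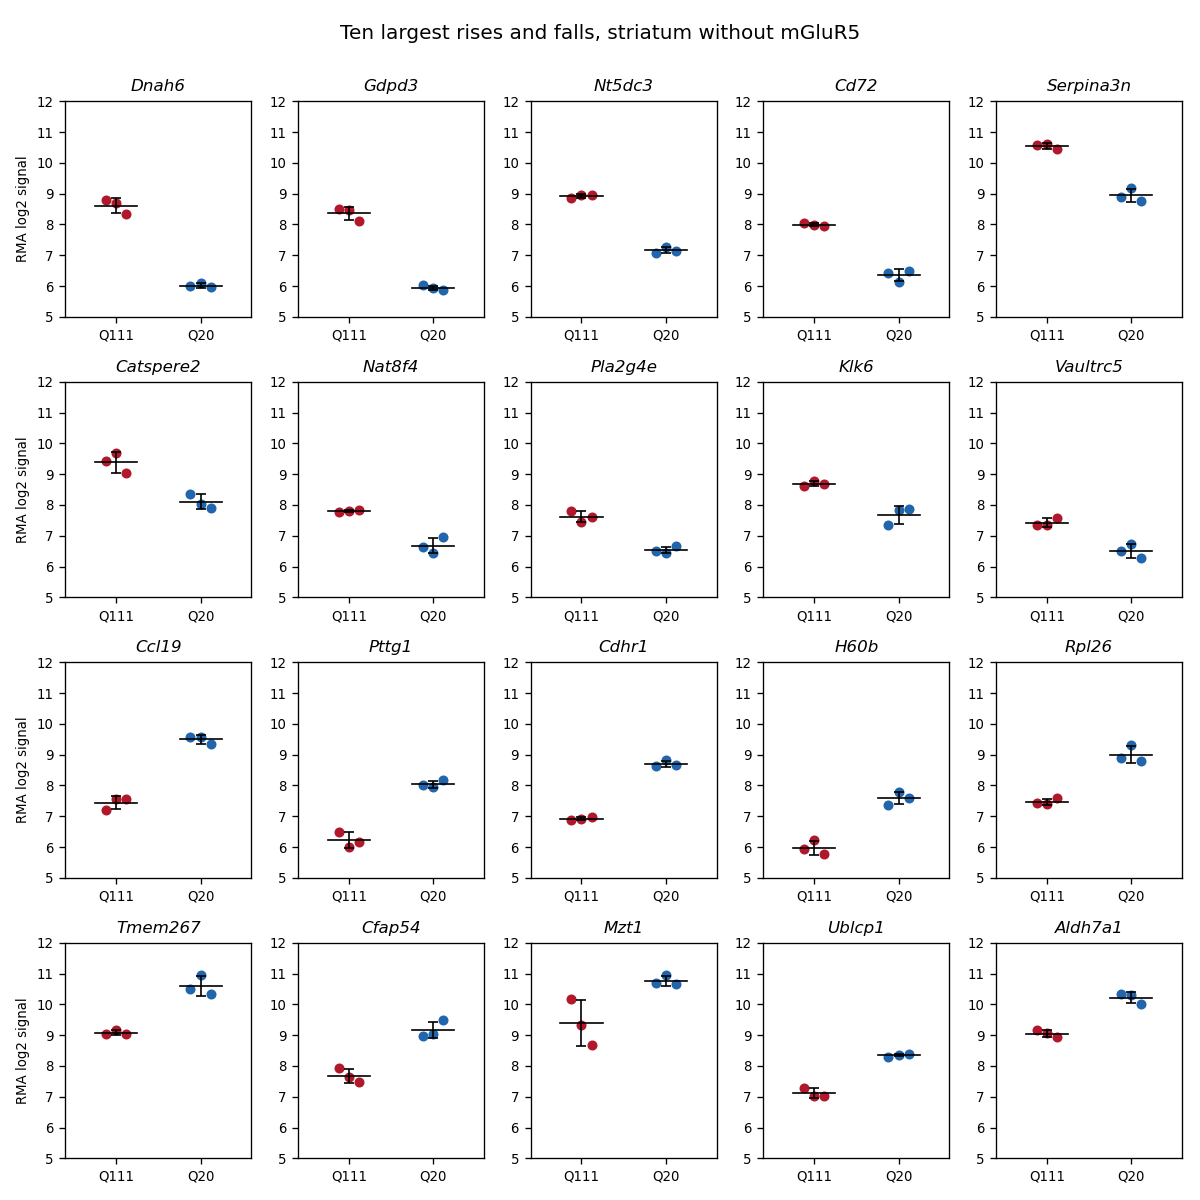
RMA log2 signal (vertical axis, from 5 to 12 in each panel) of the 10 named genes with the largest rises (upper rows) and the 10 with the largest falls (lower rows), in 3 Q111 arrays (red, left) and 3 Q20 arrays (blue, right) of mice without mGluR5. Points are arrays, long bars are means and error bars are SD (n = 3). No gene shown has overlapping groups, and the 3 Q111 values of Mzt1 are the most scattered, from 8.69 to 10.17.

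Among genes of secreted proteins, the protease inhibitor Serpina3n and the protease Klk6 rose in Q111. Serpina3n is known as a gene that astrocytes switch on in inflammation and injury, and Klk6 (kallikrein 6) is a serine protease prominent in oligodendrocytes. Serpina3n had signals of 10.58, 10.61 and 10.45 in the Q111 arrays against 8.88, 9.18 and 8.78 in the Q20 arrays. Every Q111 array was more than 1 log2 unit above every Q20 array, a 3.03-fold rise (log2 fold change 1.60 ± 0.12, adjusted p = 2.96e-06). Klk6 had 8.61, 8.77 and 8.68 in the Q111 arrays against 7.34, 7.82 and 7.86 in the Q20 arrays. The groups were again apart, and the rise was 2.02-fold (1.01 ± 0.15, adjusted p = 0.00294).

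The rise of Serpina3n stood alone in its list of 28 tested serpins and reactive astrocyte genes, of which 1 was higher and 0 were lower. The other 27 ran from -0.31 to 0.24, and Gfap, the intermediate filament of reactive astrocytes, stood at 0.24 ± 0.14 (adjusted p = 0.659). The median of the list was -0.075, against -0.022 over all genes. Klk6 was likewise the 1 called member among 26 kallikreins and other secreted proteases, whose median was 0.028. Of 20 astrocyte markers, the claudin Cldn10 fell (-0.63 ± 0.13, adjusted p = 0.0349) and 15 were negative, with a median of -0.095. The single call in each of these lists stands beside 0.885% called over all tested genes. The call of Cldn10 was lost in 8 of 12 fits that left out a single array (adjusted p from 0.0516 to 0.189), and its other probe set gave -0.39 ± 0.12 (adjusted p = 0.218). No member of the 20 oligodendrocyte and myelin markers was called. Their median was 0.163 with 14 positive, and Mag, a myelin adhesion protein, had 11.01, 10.96 and 10.93 in the Q111 arrays against 10.56, 10.83 and 10.64 in the Q20 arrays (adjusted p = 0.37).

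Gdpd3 and Pla2g4e, both phospholipid-cleaving enzymes, rose in Q111. Gdpd3, a lysophospholipase D, had signals of 8.50, 8.48 and 8.11 in the Q111 arrays against 6.02, 5.92 and 5.88 in the Q20 arrays. The Q20 values sat near the filter level and the Q111 values well above it, a 5.36-fold rise (2.42 ± 0.32, adjusted p = 0.00111). With mGluR5 the Q20 arrays of Gdpd3 were scattered, at 6.94, 5.70 and 7.71, against a Q111 mean of 8.07. The change with mGluR5 was 1.29 ± 0.32 and was not called (adjusted p = 0.122). Pla2g4e, a cytosolic phospholipase A2 that makes N-acyl-phosphatidylethanolamines in brain, had 7.79, 7.44 and 7.62 in the Q111 arrays against 6.51, 6.44 and 6.65 in the Q20 arrays. Its groups did not overlap either, with a 2.12-fold rise (1.08 ± 0.11, adjusted p = 7.45e-05). These were the called members among 41 phospholipase and eicosanoid genes, 2 higher and 0 lower, where 0.885% of all tested genes were called. The next, Pla2g4a, had 6.34, 6.61 and 6.35 in the Q111 arrays against 5.96, 6.14 and 5.95 in the Q20 arrays (0.42 ± 0.11, adjusted p = 0.127). The list as a whole had a median of -0.010, near that of all genes.

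A receptor and its co-receptor of endothelial cells fell in Q111, and most vascular markers had lower values. Acvrl1 (ALK1) is a receptor kinase of endothelial cells that binds BMP9 and BMP10, and endoglin (Eng) is its co-receptor. Acvrl1 had signals of 7.28, 7.24 and 7.46 in the Q111 arrays against 8.42, 8.49 and 8.56 in the Q20 arrays. The groups were separated by nearly a log2 unit, a 2.24-fold fall (-1.17 ± 0.09, adjusted p = 4.62e-06). Eng had 7.73, 7.72 and 7.87 in the Q111 arrays against 8.20, 8.29 and 8.36 in the Q20 arrays. It fell 1.42-fold (-0.51 ± 0.09, adjusted p = 0.0143), a call lost without Q111 replicates 1 or 2 or Q20 replicates 2 or 3, each left out alone (adjusted p from 0.0605 to 0.0847). Acvrl1 kept its call whichever array was left out. They were the 2 called members of 34 TGF-beta and BMP receptors and ligands, of which 25 were negative. Over all tested genes 0.885% were called and 56.7% were negative. The target gene Id1 stood at -0.27 ± 0.10 (adjusted p = 0.365).

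Of 19 markers of endothelial and mural cells, 18 were negative, against 56.7% of all tested genes, and 11 had groups that did not overlap, against 19.1%. The median was -0.28, against -0.022 over all genes. The mean level of the list was 7.53 to 7.66 in the Q111 arrays against 7.77 to 7.80 in the Q20 arrays, so the 3 Q111 arrays lay below the 3 Q20 arrays. With mGluR5 the median was -0.113, and 0 members were called in the difference between receptor genotypes. The list mean with mGluR5 was 7.530, 7.478 and 7.687 in Q111 against 7.765, 7.708 and 7.618 in Q20. The 1 member called without mGluR5, where 0.885% of all tested genes were called, was Abcc9, a subunit of the ATP-sensitive potassium channel of pericytes. It had 6.82, 6.98 and 6.87 in the Q111 arrays against 7.33, 7.36 and 7.37 in the Q20 arrays, a 1.38-fold fall (-0.46 ± 0.08, adjusted p = 0.0109). The call of Abcc9 was lost without Q111 replicates 1 or 3 or Q20 replicate 1, each left out alone (adjusted p from 0.0551 to 0.0795). With mGluR5 Abcc9 had means of 6.91 in Q111 and 6.89 in Q20, near the Q111 arrays without mGluR5. The 1 positive marker was the transporter Slco1a4, with 7.53 to 7.73 in the Q111 arrays against 6.89 to 7.15 in the Q20 arrays (0.64 ± 0.14, adjusted p = 0.0528). The number of negative members was between 15 and 18 in the alternatives that tested all 19, and was 14 of 15 under the stricter filter. No list was fixed for other genes of vessel walls and matrix, and those given here were chosen after their values were seen. Thbs2 (thrombospondin 2) fell by 0.51 ± 0.09 (adjusted p = 0.00756) and the chemokine-binding receptor Ackr1, known from venules, fell 2.16-fold (adjusted p = 2.24e-05), while the matrix proteins Matn2 and Ccdc80 rose 1.47-fold and 1.42-fold (adjusted p = 0.00858 and 0.0203). The calls of Matn2 and Ccdc80 were lost in 2 and 4 of 12 fits with an array left out. Lower values were also called for the matrix protein Fn1 (fibronectin, -0.58 ± 0.11, adjusted p = 0.0153), the endothelial phosphatase Ptprb (-0.48 ± 0.09, adjusted p = 0.0217), Ccm2 of endothelial junctions (-0.42 ± 0.09, adjusted p = 0.0389) and the chemokine Cxcl12 (-0.43 ± 0.10, adjusted p = 0.0471). These calls were lost in 4 (Fn1), 6 (Ptprb), 8 (Ccm2) and 10 (Cxcl12) of the 12 fits.

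Among immune genes, a chemokine, a B cell co-receptor and a natural killer ligand had the largest called changes. Ccl19, a chemokine that guides lymphocytes and dendritic cells, had signals of 7.21, 7.55 and 7.57 in the Q111 arrays against 9.57, 9.58 and 9.34 in the Q20 arrays. This was the largest fall of any tested gene at 4.16-fold (-2.06 ± 0.11, adjusted p = 9.67e-08), and the other 4 probe sets assigned to Ccl19 gave -2.42 to -2.63. Near-identical copies of this gene may share these probes. Cd72, an inhibitory co-receptor of B cells, had 8.04, 7.97 and 7.95 in the Q111 arrays against 6.42, 6.13 and 6.50 in the Q20 arrays, a 3.11-fold rise (1.63 ± 0.12, adjusted p = 2.18e-06). H60b, a ligand of the natural killer receptor NKG2D, had 5.93, 6.22 and 5.76 in the Q111 arrays against 7.38, 7.80 and 7.60 in the Q20 arrays. It was low in all Q111 arrays, a 3.08-fold fall (-1.62 ± 0.19, adjusted p = 0.000394). The chemokine Ccl28 fell to a mean below the filter level in Q111, as did the Toll-like receptor Tlr1 (adjusted p = 0.00231 and 0.00584). The DNA sensor Aim2 fell 1.41-fold (adjusted p = 0.0207), a call lost without any 1 of the 6 arrays compared (adjusted p from 0.0512 to 0.113). None of the 18 microglia markers was called. Their median was -0.107 with 13 negative, and Fcrls had 5.91, 5.89 and 6.81 in the Q111 arrays against 7.31, 7.50 and 6.99 in the Q20 arrays (-1.07 ± 0.25, adjusted p = 0.0607). Called falls outside that list included Ccl3 (-0.56 ± 0.11, adjusted p = 0.0212), Cyba (-0.48 ± 0.09, adjusted p = 0.017) and Olfml3 (-0.60 ± 0.13, adjusted p = 0.0471). Their calls were lost in 4, 4 and 7 of 12 fits with an array left out. None of 24 interferon response and MHC class I genes was called, at a median of 0.028.

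Genes that define the striatal projection neurons were not called in Q111. Of 43 tested identity genes, 0 rose and 0 fell, 26 were negative and the median was -0.020, near the -0.022 of all genes. Since 0.885% of all tested genes were called, 0 of 43 cannot be told from that share. The members nearest to the threshold were the retinoid receptor Rxrg and the opioid precursor Pdyn of the direct pathway. Rxrg had signals of 11.17, 10.96 and 11.03 in the Q111 arrays against 11.48, 11.41 and 11.45 in the Q20 arrays (-0.39 ± 0.09, adjusted p = 0.0533). Pdyn had 8.37, 8.53 and 8.54 in the Q111 arrays against 9.06, 9.40 and 8.89 in the Q20 arrays (-0.64 ± 0.15, adjusted p = 0.0587). Both had Q111 arrays that all lay below the Q20 arrays. Of 33 neuropeptides and their receptors, 1 fell, the neurokinin receptor Tacr3, with 6.50, 7.13 and 6.88 in the Q111 arrays against 7.55, 7.78 and 7.50 in the Q20 arrays (1.71-fold, adjusted p = 0.017). Its call was lost without Q111 replicates 1 or 3 or Q20 replicates 1 or 2, each left out alone (adjusted p from 0.0565 to 0.0987). Of 16 interneuron markers none was called and 13 were negative, at a median of -0.094.

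Among genes of synaptic signalling, a metabotropic receptor fell and a potassium channel rose. Each was the 1 called member of its list, where 0.885% of all tested genes were called. Of 6 metabotropic glutamate receptors other than Grm5, Grm7, a presynaptic receptor of the group III family, fell. It had 9.51, 9.54 and 9.44 in the Q111 arrays against 9.99, 9.83 and 10.04 in the Q20 arrays (1.37-fold, -0.46 ± 0.09, adjusted p = 0.0309). The next, Grm8, stood at 0.21 ± 0.12 (adjusted p = 0.63). Of 44 potassium channel genes 1 rose, the calcium-activated channel Kcnn2 (SK2), with 8.48, 8.60 and 8.32 in the Q111 arrays against 7.75, 7.99 and 7.91 in the Q20 arrays (1.49-fold, 0.58 ± 0.11, adjusted p = 0.018). The call of Grm7 was lost in 6 of 12 fits that left out an array (adjusted p from 0.0511 to 0.164) and that of Kcnn2 in 4 (adjusted p from 0.0558 to 0.136). Rasgrp3, an activator of Ras and Rap that responds to diacylglycerol, rose 1.84-fold (adjusted p = 0.018), with 8.58, 8.66 and 8.40 in the Q111 arrays against 7.41, 7.76 and 7.83 in the Q20 arrays. Its call was lost without Q111 replicates 1 or 2 or Q20 replicate 1 (adjusted p from 0.0846 to 0.129). None of 29 partners of group I receptors was called, at a median of -0.051, and their smallest p belonged to the G protein gene Gnaq (-0.27 ± 0.10, adjusted p = 0.331). None of 16 ionotropic glutamate receptor subunits (median -0.054), of 17 GABA genes (median -0.125, 14 negative) and of 28 immediate early genes (median 0.026) was called.

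**Figure D2:**
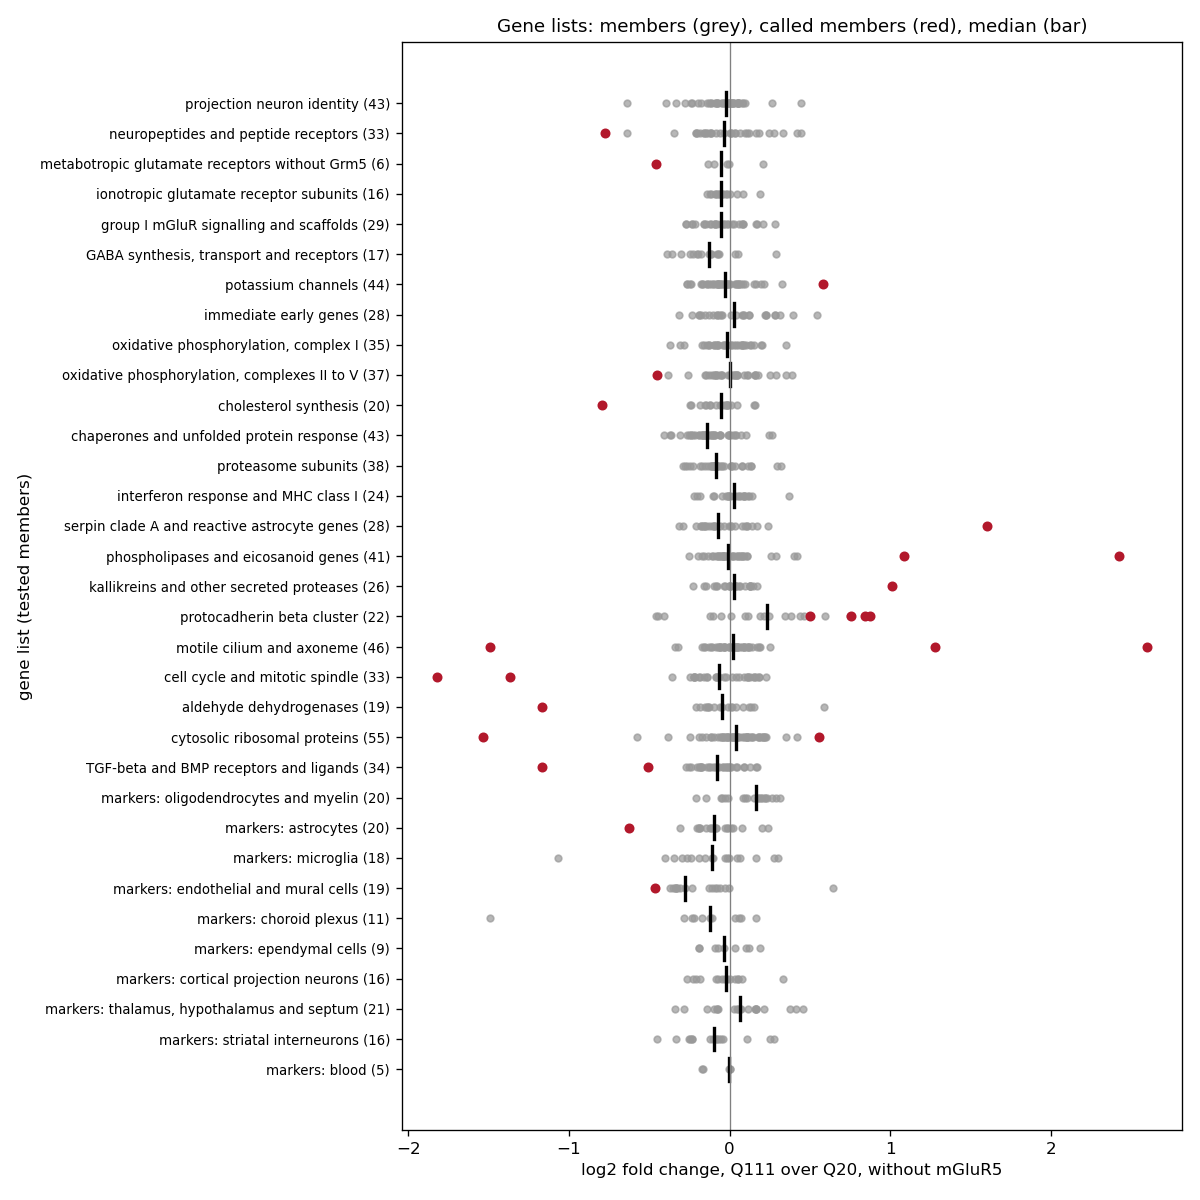
Log2 fold change of Q111 over Q20 without mGluR5 (horizontal axis) for every tested member of 33 gene lists, with the number tested in brackets. Grey points are members that were not called, red points called members, and black bars medians. The bars of the endothelial and mural list (-0.28) and of the protocadherin beta list (0.232) lie farthest from 0.

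Genes of motile cilia held the largest rise and one of the larger falls. Dnah6, an inner-arm dynein heavy chain of the axoneme, had signals of 8.78, 8.70 and 8.35 in the Q111 arrays against 6.00, 6.09 and 5.96 in the Q20 arrays. The Q20 arrays sat close to the filter level, and the rise was 6.04-fold (2.59 ± 0.13, adjusted p = 9.51e-08). The other 2 probe sets of Dnah6 gave 2.59 and 2.02. Cfap54, a protein of the central apparatus of cilia, had 7.92, 7.64 and 7.47 in the Q111 arrays against 8.98, 9.05 and 9.48 in the Q20 arrays. It was lower in every Q111 array, a 2.81-fold fall (-1.49 ± 0.15, adjusted p = 5.27e-05), and its other probe set gave -0.80 ± 0.14 (adjusted p = 0.0121). Catspere2, annotated as an accessory subunit of the sperm calcium channel CatSper, had 9.43, 9.69 and 9.03 in the Q111 arrays against 8.37, 8.04 and 7.91 in the Q20 arrays, a 2.42-fold rise (adjusted p = 0.000945). The other 43 of 46 tested cilium genes were not called, where 0.885% of all tested genes were called, and the median of the list was 0.020. Of 9 ependymal markers none was called, at a median of -0.032. The ciliary protein Invs (inversin), counted outside this list, fell 1.79-fold, with 8.16, 8.30 and 8.10 in the Q111 arrays against 8.97, 8.98 and 9.13 in the Q20 arrays (adjusted p = 8.18e-05). Also outside this list, Wdr63 and Cfap20dc rose by 0.45 ± 0.09 and 0.50 ± 0.11 (adjusted p = 0.0298 and 0.0471). Their calls were lost in 5 and 9 of 12 fits with an array left out, and Wdr63 had a Q20 mean below the filter level.

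Genes of cell division and of the ribosome were called singly or in pairs. Pttg1, the securin that restrains separase until chromosomes part, had signals of 6.50, 5.99 and 6.18 in the Q111 arrays against 8.02, 7.95 and 8.17 in the Q20 arrays. The groups lay 1.44 log2 units apart at their nearest arrays, a 3.53-fold fall (-1.82 ± 0.12, adjusted p = 5.58e-07). Mzt1, which recruits the gamma-tubulin complex, had 10.17, 9.33 and 8.69 in the Q111 arrays against 10.69, 10.94 and 10.65 in the Q20 arrays. The Q111 arrays were scattered, the call (-1.36 ± 0.27, adjusted p = 0.0243) was lost in 5 of 12 fits with an array left out (adjusted p from 0.0588 to 0.122), and the other probe set gave -0.29 ± 0.11 (adjusted p = 0.406). These were the 2 called members of 33 cell cycle genes, at a list median of -0.063. Of 55 cytosolic ribosomal protein genes, Rpl26 fell and Rps3a1 rose. Both counts stand beside a share of 0.885% called over all tested genes. Rpl26 had 7.43, 7.38 and 7.58 in the Q111 arrays against 8.88, 9.31 and 8.81 in the Q20 arrays (2.90-fold, adjusted p = 6.36e-05). Rps3a1 rose 1.47-fold (adjusted p = 0.0359), a call lost in 8 of 12 fits with an array left out (adjusted p from 0.0519 to 0.201). Ribosomal protein genes have many processed copies whose signal the probes may share. Ublcp1, a phosphatase of the nuclear proteasome, fell 2.34-fold (adjusted p = 2.55e-05), with 7.30, 7.04 and 7.03 in the Q111 arrays against 8.31, 8.36 and 8.39 in the Q20 arrays, while none of 38 proteasome subunits was called (median -0.087).

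Aldh7a1 and Epm2a, both enzymes of metabolism, fell in Q111. Apart from the aldehyde dehydrogenases and the cholesterol genes, the metabolic genes given here come from no fixed list. Aldh7a1, an aldehyde dehydrogenase of lysine breakdown, had signals of 9.16, 9.06 and 8.93 in the Q111 arrays against 10.33, 10.30 and 10.02 in the Q20 arrays. It was the 1 called member of 19 aldehyde dehydrogenases, a 2.24-fold fall (-1.17 ± 0.19, adjusted p = 0.00513). Aldh1a1, which makes retinoic acid, had 8.89, 9.07 and 8.99 in the Q111 arrays against 8.21, 8.50 and 8.49 in the Q20 arrays (0.59 ± 0.15, adjusted p = 0.087). Epm2a (laforin), a phosphatase of glycogen, had 8.50, 8.25 and 8.49 in the Q111 arrays against 9.36, 9.36 and 9.42 in the Q20 arrays, a 1.96-fold fall (adjusted p = 0.0011). Falls were also called for Alad of haem synthesis (1.74-fold, adjusted p = 0.00382), for the carbonic anhydrase Car12 (1.78-fold, adjusted p = 0.00231) and for the cystine-glutamate exchanger Slc7a11 (1.77-fold, adjusted p = 0.00294). The sterol enzyme Hsd17b7 was the 1 called member of 20 cholesterol synthesis genes, with 7.96, 7.84 and 7.80 in the Q111 arrays against 8.55, 8.87 and 8.56 in the Q20 arrays (1.73-fold, adjusted p = 0.00315). Its list had 16 negative members and a median of -0.056. The single calls of the aldehyde dehydrogenase and cholesterol lists stand beside 0.885% called over all tested genes. Of named metabolic genes in the opposite direction, Adssl1 of purine nucleotide synthesis stood at 0.58 ± 0.13 (adjusted p = 0.042) and the glucose-6-phosphate transporter Slc37a4 at 0.57 ± 0.12 (adjusted p = 0.028). Their calls were lost in 9 and 5 of 12 fits with an array left out. Idua, a lysosomal enzyme that degrades glycosaminoglycans, rose 1.67-fold (adjusted p = 0.0021), with 8.68, 8.68 and 8.73 in the Q111 arrays against 7.98, 7.85 and 8.04 in the Q20 arrays.

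Nnt and Sdhd, which act in the inner mitochondrial membrane, fell in Q111. Nnt, the transhydrogenase that supplies mitochondrial NADPH, had 8.54, 8.59 and 8.49 in the Q111 arrays against 9.24, 9.20 and 9.15 in the Q20 arrays (1.58-fold fall, adjusted p = 0.032). Sdhd, a membrane anchor of respiratory complex II, had 8.85, 8.85 and 8.91 in the Q111 arrays against 9.29, 9.38 and 9.30 in the Q20 arrays (1.37-fold fall, adjusted p = 0.0471). In both genes the groups were clearly apart, yet each call was lost when any 1 of the 6 arrays was left out. When lost, the adjusted p ran from 0.077 to 0.156 for Nnt and from 0.0582 to 0.188 for Sdhd, whose call was also lost in 3 fits that left out an array with mGluR5. The companion subunit Sdhc had 10.95, 11.05 and 11.09 in the Q111 arrays against 10.66, 10.82 and 10.46 in the Q20 arrays (0.39 ± 0.10, adjusted p = 0.126). Sdhd was the 1 called gene of 37 subunits of complexes II to V (median 0.002), where 0.885% of all tested genes were called. None of 35 complex I subunits was called (median -0.015). None of 43 chaperones and unfolded protein response genes was called, although 35 were negative, at a median of -0.141. Among them the stress sensor Atf6 stood at -0.41 ± 0.11 (adjusted p = 0.126) and the endoplasmic reticulum chaperone Hspa5 at -0.36 ± 0.12 (adjusted p = 0.252).

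Protocadherins of the beta cluster, adhesion proteins that give single neurons distinct surface identities, rose in part in Q111. Of 22 tested members of the cluster, 4 rose, 0 fell and 16 were positive, at a median of 0.232 against -0.022 over all genes. Over all tested genes 0.885% were called and 56.7% were negative. Pcdhb8 had signals of 9.09, 9.29 and 8.89 in the Q111 arrays against 8.18, 8.34 and 8.23 in the Q20 arrays, a 1.80-fold rise (adjusted p = 0.00315). Pcdhb3 had 6.87, 7.29 and 6.91 in the Q111 arrays against 6.04, 6.55 and 5.86 in the Q20 arrays (1.83-fold, adjusted p = 0.0395). Pcdhb7 and Pcdhb4 rose 1.68-fold and 1.42-fold (adjusted p = 0.0189 and 0.0286), and in all 4 genes the groups did not overlap. The calls of Pcdhb3, Pcdhb7 and Pcdhb4 were lost in 7, 6 and 5 of 12 fits with an array left out, and that of Pcdhb8 in none. The number of positive members ran from 13 to 19 over the alternatives that tested all 22, and was 11 of 17 under the stricter filter. Vaultrc5, a vault RNA gene in the same stretch of the genome, rose 1.90-fold as well (adjusted p = 0.0124), a call lost without Q111 replicate 3 or Q20 replicates 1 or 3 (adjusted p from 0.0611 to 0.0736). Members of this cluster resemble one another in sequence, so probe sets may share signal. With mGluR5 the median of the list was -0.214, and 7 members were called in the test of the difference between the receptor genotypes.

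MicroRNA genes of the imprinted interval between Dlk1 and Dio3 on chromosome 12 were chosen for description after their values were seen. This cluster is transcribed from the maternal chromosome together with Meg3 and Rian and is strongly expressed in neurons. The probe sets read labelled cDNA from the loci and not the mature microRNAs. Mature sequences of the 3 called loci from RefSeq on GRCm38.p6 (plus strand, 5′ to 3′), with both arms of miR-665 and miR-668 and the 3p arm of miR-485, are shown because the seed guides pairing with targets, with the seed (bases 2 to 8) in capitals.
mmu-miR-665-5p (chr12:109586331-109586356): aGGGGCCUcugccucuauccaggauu
mmu-miR-665-3p (chr12:109586368-109586387): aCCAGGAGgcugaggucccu
mmu-miR-668-5p (chr12:109734733-109734756): gUAAGUGUgccucgggugagcaug
mmu-miR-668-3p (chr12:109734774-109734797): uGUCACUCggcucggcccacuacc
mmu-miR-485-3p (chr12:109734946-109734967): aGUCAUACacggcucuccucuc
No seed is shared among these 5 sequences.

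Mir485 had signals of 9.52, 9.65 and 9.68 in the Q111 arrays against 8.83, 8.60 and 8.81 in the Q20 arrays, a 1.83-fold rise (0.87 ± 0.10, adjusted p = 0.000259). Mir665 had 8.637, 8.999 and 8.578 in the Q111 arrays against 8.023, 7.750 and 7.909 in the Q20 arrays, a 1.80-fold rise (0.84 ± 0.12, adjusted p = 0.00281). Both loci were higher in each Q111 array than in any Q20 array. With mGluR5 the means in Q111 and Q20 were 9.61 and 9.64 for Mir485, 8.58 and 8.81 for Mir665, and 9.13 and 9.10 for Mir668. These lay near the Q111 arrays without mGluR5, so the Q20 arrays without mGluR5 were the group apart. Mir668, which neighbours Mir485, had 9.01, 9.09 and 9.05 in the Q111 arrays against 8.54, 8.31 and 8.78 in the Q20 arrays (1.42-fold, adjusted p = 0.0436), a call lost in 9 of 12 fits with an array left out (adjusted p from 0.0524 to 0.201). Of 37 microRNA sets tested in the interval, 33 were positive, 3 were called and 14 had groups that did not overlap. Over all tested genes 56.7% were negative, 0.885% were called and 19.1% did not overlap. The median of the microRNA sets was 0.245 without mGluR5 and -0.025 with mGluR5. In most of them Q20 replicate 2 read lowest of the Q20 arrays. Mir341 had 11.31 in it against 11.91 and 12.01 in replicates 1 and 3. In others, such as Mir134 (10.03 against 9.99 and 9.88), it did not read lowest. Of the long RNAs, Meg3 stood at 0.32 ± 0.09 (adjusted p = 0.181), with 12.46, 12.50 and 12.40 in the Q111 arrays against 12.25, 11.95 and 12.21 in the Q20 arrays. Rian stood at -0.05 ± 0.13 (adjusted p = 0.946), with 8.62, 8.83 and 8.37 in the Q111 arrays against 8.57, 8.74 and 8.66 in the Q20 arrays, so its groups overlapped. The number of positive microRNA sets ran from 26 to 34 over the alternatives that tested all 37, and was 27 of 28 under the stricter filter.

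**Figure D3:**
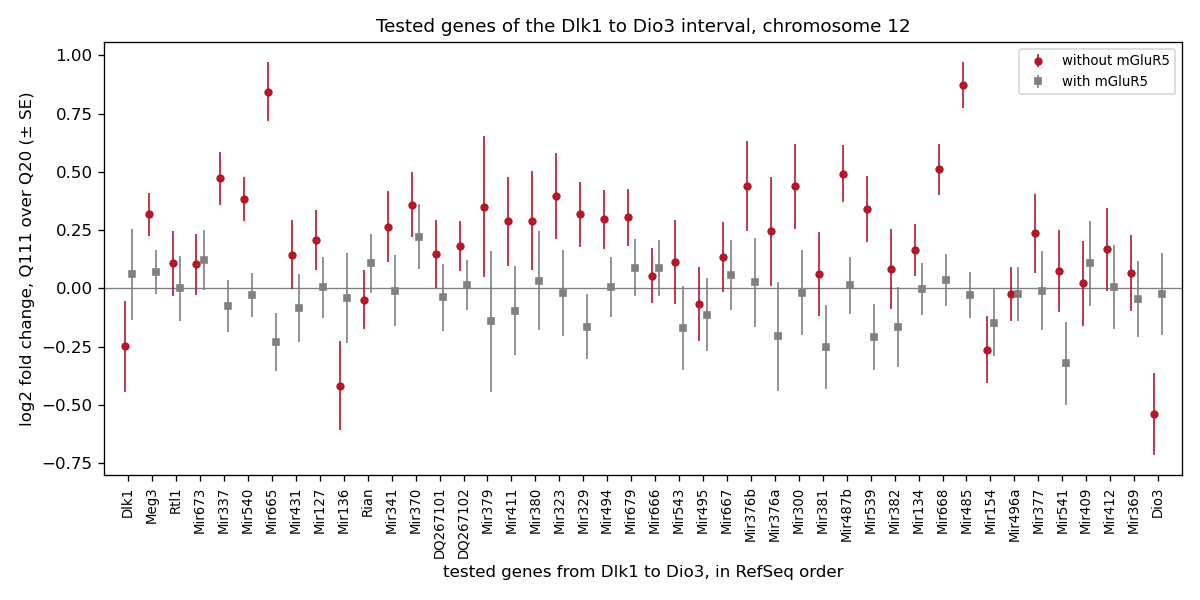
Log2 fold change of Q111 over Q20 (vertical axis, bars are SE) for 44 tested genes from Dlk1 to Dio3 in their order on chromosome 12, without mGluR5 (red circles) and with mGluR5 (grey squares). Most red circles lie above 0, with Mir485 (0.87) and Mir665 (0.84) highest, and the grey squares lie on either side of 0.

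The same allele contrast in mice with mGluR5 called 96 genes (0.574%), and the difference between the contrasts 73 (0.437%). The contrasts share no arrays, although they share the estimate of the spread. Called in both were 33 genes, which are 22.3% of the 148 and 34.4% of the 96, and 27 of them moved the same way. The 27 had a median size of 0.835 without mGluR5 and 0.805 with it, on the log2 scale. Ccl19, Cdhr1, Cd72, Rpl26, Invs, Ackr1 and H60b were among those with close values. Cdhr1, a cadherin of photoreceptors, had 6.87, 6.92 and 6.97 in the Q111 arrays against 8.63, 8.82 and 8.65 in the Q20 arrays, with -1.78 ± 0.10 without mGluR5 and -1.82 ± 0.10 with it.

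Of the 148 genes called without mGluR5, 40 were also called in the test of the difference, 20 that rose and 20 that fell. In 6 genes both contrasts were called with opposite signs. Dnah6 had 8.78, 8.70 and 8.35 in Q111 against 6.00, 6.09 and 5.96 in Q20 without mGluR5, but 6.07, 6.42 and 6.30 in Q111 against 8.45, 8.72 and 8.87 in Q20 with mGluR5. The Q111 arrays were the higher ones without the receptor and the lower ones with it, a difference between the log2 changes of 5.01 ± 0.19 (adjusted p = 1.04e-09). Cfap54 had 9.42, 9.66 and 9.45 in Q111 against 7.87, 8.08 and 7.74 in Q20 with mGluR5, the reverse of its fall without it (difference -3.10 ± 0.20, adjusted p = 1.65e-06). Tacr3, the hydrolase Abhd10 and the carboxypeptidase Cpq fell without mGluR5 and rose with it, while Ints7, a subunit of the Integrator complex, rose without it and fell with it. Their differences ran from -1.59 to 1.08, with adjusted p from 0.00132 to 0.00153.

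For the other 34 genes the contrast with mGluR5 was not called. Nt5dc3, which carries a nucleotidase domain, had 8.85, 8.95 and 8.95 in Q111 against 7.08, 7.27 and 7.12 in Q20 without mGluR5 (3.38-fold), and 9.14, 9.17 and 8.65 in Q111 against 8.82, 9.02 and 8.71 in Q20 with it. The Q20 arrays without the receptor were the group that stood apart from the others. That group also stood apart for Mir485, Mir665, Arntl2 and Idua. Arntl2 had means of 7.03 in Q111 and 6.33 in Q20 without mGluR5, and 6.99 and 7.02 with it. Idua had 8.70 and 7.96 without mGluR5, and 8.71 and 8.94 with it. For Pttg1 and Acvrl1 the group apart was the Q111 arrays without the receptor. With mGluR5 Pttg1 had 7.80, 7.94 and 7.98 in Q111 against 7.98, 7.93 and 7.99 in Q20. With mGluR5 Acvrl1 had 8.47, 8.38 and 8.59 in Q111 against 8.54, 8.52 and 8.62 in Q20. Serpina3n with mGluR5 had 8.11, 8.27 and 7.91 in Q111 against 7.77, 7.76 and 7.97 in Q20, so the Q111 arrays without mGluR5 were the highest of the 4 groups and the difference was 1.34 ± 0.17 (adjusted p = 0.00153). The remaining 81 of the 148 were called neither with mGluR5 nor in the difference. Their median size was 0.554 on the log2 scale without mGluR5 and 0.147 with it, in a set chosen on the contrast without mGluR5.

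**Figure D4:**
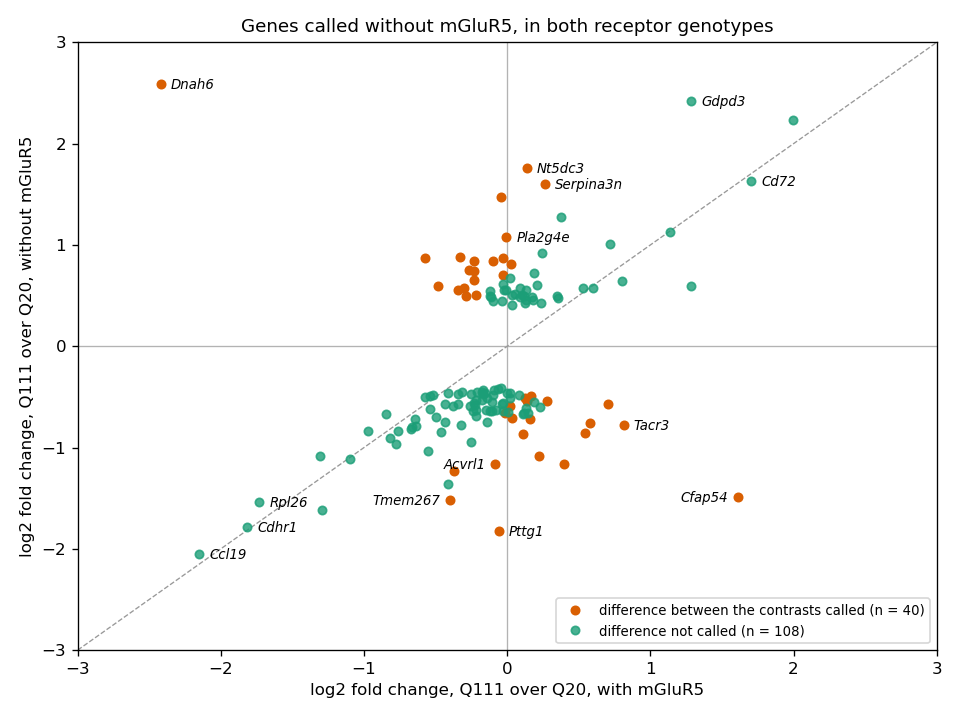
Log2 fold change of Q111 over Q20 without mGluR5 (vertical axis) against that with mGluR5 (horizontal axis) for the 148 genes called without mGluR5. Orange points are the 40 genes whose difference between the contrasts was called, green points the other 108, and the dashed line marks equal change. Dnah6 and Cfap54 lie in the corners of opposite sign, and Ccl19, Cdhr1 and Cd72 lie near the dashed line.

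The share of genes called varied between chromosomes, which was not tested. Of 941 tested genes on chromosome 9, 22 were called (2.34%), 3 higher and 19 lower, among them Car12, Elovl4 and Sdhd. Chromosome 18 had 8 of 419 (1.91%), 6 of them higher, and chromosome 1 had 16 of 959 (1.67%). Chromosome 5, which carries Htt, had 4 of 1004 (0.398%), and chromosome 7, which carries Grm5, had 3 of 1400 (0.214%), against 0.885% of all tested genes. In all, 39 called genes lay within 5 tested genes of another called gene and formed 16 stretches. The share of all tested genes that lie this near a called gene was not computed, so the count only describes position. On chromosome 4, Ccl19 lay with Dctn3, a dynactin subunit (1.87-fold fall), Rpp25l (1.68-fold fall) and Fancg of DNA crosslink repair (1.49-fold rise). On chromosome 13, Nnt lay with Tmem267 and Ccl28, and all 3 fell. Tmem267 had 9.04, 9.17 and 9.03 in the Q111 arrays against 10.51, 10.97 and 10.33 in the Q20 arrays (2.87-fold, adjusted p = 7.03e-05). On chromosome 9, Elovl4, an elongase of very long fatty acids, and Tpbg both fell, as did Sdhd and Pts, an enzyme of tetrahydrobiopterin synthesis. With an array left out, the calls of Elovl4, Tpbg and Pts were lost in 2, 4 and 6 of 12 fits. Members of a stretch did not always share a direction. The clock gene Arntl2 rose 1.63-fold while its neighbour Ppfibp1 fell 1.55-fold, and Matn2 rose while Cpq fell. The 4 called genes of chromosome 5 were Tlr1, Idua, Adamts3 and Aff1, and the 3 of chromosome 7 were Gdpd3, Klk6 and Zranb1. The calls of Cpq, Aff1 and Zranb1 were lost in 5, 6 and 8 of 12 fits with an array left out.

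**Figure D5:**
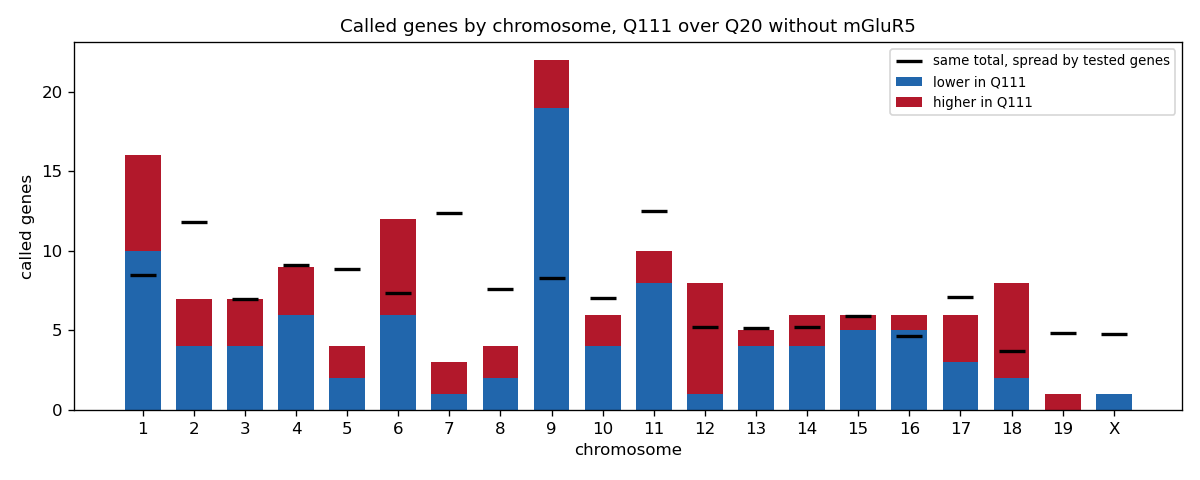
Number of called genes (vertical axis) on each chromosome (horizontal axis) for Q111 over Q20 without mGluR5, with lower genes in blue and higher genes in red above them. Black dashes give the number each chromosome would hold if the called genes were spread by tested genes. The bar of chromosome 9, with 22 called genes of which 19 are lower, is the tallest.

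Markers of tissue next to the striatum were read for the same 6 arrays. Ttr, the transthyretin of choroid plexus, had 7.16, 6.51 and 6.30 in the Q111 arrays against 7.25, 9.28 and 7.92 in the Q20 arrays. The values were scattered among Q20 arrays, and the difference was not called (-1.49 ± 0.52, adjusted p = 0.316). None of 11 choroid plexus markers was called, at 6.34 to 6.52 for the mean of the list in the Q111 arrays against 6.51 to 6.76 in the Q20 arrays. None of 16 markers of cortical projection neurons was called (median -0.025, list mean 7.51 to 7.60 in the Q111 arrays against 7.45 to 7.71 in the Q20 arrays). None of 21 markers of thalamus, hypothalamus and septum was called either (median 0.066, list mean 7.39 to 7.45 in the Q111 arrays against 7.31 to 7.40 in the Q20 arrays). The 5 tested blood markers had a median of -0.003. The part of these tissues in the called genes was not tested.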

How the data were processed

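Per the labels' protocols, total RNA of mouse striatum was isolated with Trizol and hybridised as biotin-labelled cDNA to Affymetrix whole-transcript arrays. The authors deposited RMA values on the log2 scale, corrected for background, quantile-normalised and summarised per probe set. Partek and RMA come from the submitters' processing notes and Partek Genomics Suite 6.5 from the series description; the genome build is not given in the sources used here. Of 35556 probe sets, 21789 had 1 gene symbol in the platform annotation. Gene order and chromosomes came from RefSeq on GRCm38.p6. Genes were tested when above the 25th percentile of the array in at least 3 arrays.

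Each gene was fitted with limma 3.58.1 (lmFit and eBayes) in R 4.3.3 with 4 group means over 12 arrays (8 residual and 6.88 prior degrees of freedom). Tests were two-sided, and every adjusted p given is limma's after Benjamini-Hochberg adjustment over 16721 genes. The fit was tested on simulated data. Errors of log2 fold changes are SE. The number of arrays limits the precision, since array data hold no counts. The members and lists were chosen with earlier results of these data known. Named were Grm5 and Htt, the 30 largest rises and falls each, called list members and the 3 members of smallest p in each list. Stretches of called genes, the called genes nearest to Htt and Grm5 and genes called in the difference between receptor genotypes were named too. Predicted genes, olfactory and vomeronasal receptors, microRNAs, small nuclear and nucleolar RNAs and pseudogenes were counted and not named, apart from 3 microRNA genes chosen after their values were seen. Further genes named beside a list (Drd2, Ppp1r1b, Gfap, Meg3, Rian, Fn1, Ptprb, Ccm2, Cxcl12, Ccl3, Cyba, Olfml3, Wdr63 and Cfap20dc) were also chosen after their values were seen. The alternatives tried are listed with their values in the closing section. Plots used matplotlib 3.10.9 and Python 3.11.15.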

Additional observations from a re-analysis of the deposited data

Results flagged for a closer look

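The genes below were set apart because the log2 change of Q111 over Q20 without mGluR5 differed from that with mGluR5 in limma's test of the difference, at an adjusted p below 0.05 over all tested genes, and because they were called without mGluR5. Each value in brackets is the change without mGluR5 minus the change with mGluR5, on the log2 scale. For the 39 named genes the adjusted p ran from 1.04e-09 to 0.0473.

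The allele contrasts were both called and had opposite signs for Dnah6 (5.01), Cfap54 (-3.10), Tacr3 (-1.59), Abhd10 (-1.34), Cpq (-1.28) and Ints7 (1.08). Dnah6 and Cfap54 belong to the axoneme of cilia, Tacr3 is the neurokinin B receptor, and Ints7 is a subunit of the Integrator complex.

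Among genes that rose without mGluR5, the difference was called for Nt5dc3 (1.62), Pcdhb3 (1.45), Serpina3n (1.34), Rasgrp3 (1.21), Pla2g4e (1.09), Mir665 (1.07), Pcdhb7 (1.02), Idua (0.97) and Pcdhb8 (0.94). It was also called for Mir485 (0.90), Matn2 (0.89), Iqgap2 (0.89), Kcnn2 (0.88), Trappc2l (0.79), Pcdhb4 (0.79), Arntl2 (0.73) and Ccdc80 (0.72). These include 4 beta protocadherins and 2 microRNA genes of chromosome 12. The call of Iqgap2 without mGluR5 was lost in 4 of 12 fits with an array left out.

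Among genes that fell without mGluR5, the difference was called for Pttg1 (-1.76), Aldh7a1 (-1.56), Tmem74 (-1.40), Impg1 (-1.30), Tmem267 (-1.12), Acvrl1 (-1.08), Ppdpf (-0.98), Tmem44 (-0.88) and Ublcp1 (-0.86). It was also called for Slc35a5 (-0.82), Npl (-0.75), Mcmdc2 (-0.68), Xdh (-0.66), Hhipl1 (-0.65), Thbs2 (-0.64) and Crispld1 (-0.60). Of these, Impg1, Tmem74 and Mcmdc2 had a Q111 mean below the filter level, so their sizes are not exact. With an array left out, the calls of Tmem74, Mcmdc2 and Xdh without mGluR5 were lost in 3 of 12 fits each. That of Slc35a5 was lost in 4.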

How the results depend on the processing

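The genes called without mGluR5 numbered 148, against 96 with mGluR5 and 73 in the difference between them. An unmoderated linear model called 91, 35 and 19 in that order. A 1.5-fold minimum left 84 without mGluR5, and a fit on the compared groups alone gave 47 with mGluR5. The study's own criteria use an unadjusted p below 0.05 and 1.5-fold. They gave 112 without mGluR5, 97 with it and 165 in the difference. The interquartile range of each array as a covariate gave 353, 266 and 153. Array weights gave 3270 without and 44 with mGluR5, but their estimation stopped before reaching its tolerance, with a weight of 12.3 on Q20 replicate 1 without mGluR5. A gene-by-gene estimate of the weights, chosen after seeing the data, gave 942, 968 and 326. With a replicate block the counts were 343 without mGluR5, 204 with it and 107 in the difference, and all 148 calls were kept. Same-numbered arrays without mGluR5 had correlations of 0.04, 0.414 and 0.358 between their deviations from the group means, and those with mGluR5 0.22, 0.54 and -0.008. Arrays of unlike number ran from -0.403 to 0.051 without mGluR5 and from -0.506 to 0.449 with it. Not every same-numbered pair passed 0.1, and the labels tie no number to a shared animal or day, so the arrays were not treated as paired. A shared source of same-numbered arrays was not tested. Replicate 2 had the widest interquartile range in Q111 arrays (2.80 without mGluR5 and 2.93 with it) and in Q20 arrays (2.95 and 2.88). With 1 array left out the counts ran from 74 to 232 without mGluR5, from 44 to 128 with it and from 34 to 69 in the difference. Without mGluR5 the count was 74 without Q20 replicate 1, 88 without Q20 replicate 2, and 80, 85 and 84 without Q111 replicates 1, 2 and 3. It was 232 when Q111 replicate 2 with mGluR5 was left out. With mGluR5 it was 45 without Q111 replicate 1, and 47 and 44 without Q20 replicates 2 and 3, all with mGluR5. In the difference it was 46, 47, 45 and 34 without Q111 replicates 1, 2 and 3 and Q20 replicate 1 lacking mGluR5, and 42, 44 and 40 without Q111 replicate 1 and Q20 replicates 2 and 3 with mGluR5. In these fits the 2 arrays left in a group are assumed to vary like the others. The other alternatives (intensity trend, median centring, quantile normalization, the filter, the mean of probe sets and all probe sets) stayed within 1.5 times each count. The rules for naming, with the 3 microRNA genes, picked 94 called genes, not all of them given above. Fn1, Ptprb, Ccm2, Cxcl12, Ccl3, Cyba, Olfml3, Wdr63 and Cfap20dc are not among them. Of the 94, 40 lost their call in none of the 27 alternatives that tested them. However, 11 of the 94 were not tested under the stricter filter, 2 of the 40 among them. Whichever array was left out, 53 of the 94 kept their call, and no sign turned. The cause of these shifts was not tested.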

Other observations

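Called genes outside the lists included Trappc2l, Entpd4, Nat8f4 and Cbx7. Trappc2l, a subunit of the TRAPP vesicle-tethering complex, had signals of 10.34, 10.24 and 10.26 in the Q111 arrays against 9.37, 9.77 and 9.26 in the Q20 arrays without mGluR5, a 1.76-fold rise (adjusted p = 0.00188). Entpd4, a nucleotidase of the Golgi and lysosomes, had 10.49, 10.47 and 10.41 in the Q111 arrays against 9.83, 9.98 and 9.90 in the Q20 arrays (1.47-fold, adjusted p = 0.00908), a call lost without replicate 1 of either group (adjusted p from 0.0564 to 0.0767). The groups were apart in both genes. The acetyltransferase family member Nat8f4 had 7.77, 7.80 and 7.84 in the Q111 arrays against 6.65, 6.45 and 6.94 in the Q20 arrays, a 2.18-fold rise (adjusted p = 0.000945), and its log2 change was 1.12 without mGluR5 and 1.14 with it. Cbx7, a subunit of Polycomb repressive complexes, fell 1.80-fold, with 8.86, 8.57 and 8.72 in the Q111 arrays against 9.51, 9.63 and 9.54 in the Q20 arrays (adjusted p = 0.00281).

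Some called genes were at or below the filter level in a group. Impg1, a proteoglycan of the retina, had 5.47, 5.48 and 5.53 in the Q111 arrays against 6.39, 6.60 and 6.73 in the Q20 arrays (adjusted p = 0.000419). Sucnr1, the succinate receptor, had 6.11, 6.42 and 6.34 in the Q111 arrays against 5.85, 5.68 and 5.68 in the Q20 arrays (adjusted p = 0.0364), a call lost in 8 of 12 fits with an array left out. In total 14 called genes had a mean below the filter level in at least 1 of the groups, 8 in Q111 and 7 in Q20.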
